A study of Mus musculus with 8 samples.

Results

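The genes described here are 43 genes of the cell cycle and DNA replication, all 43 of which were found in the deposited table of 57132 genes, each on a single identifier. They were taken by symbol from a list that names the machinery of DNA synthesis, of mitosis and of the cyclin-dependent kinases. Bulk RNA-seq was done on mouse tumours grown under the skin from KPC, a model of pancreatic cancer, and the labels call the tissue sorted without naming a gate. The control group was 4 tumours of mice given PBS, a buffered saline, and the treated group was 4 tumours of mice given Ce6@D4-EV with light irradiation, called PDT (photodynamic therapy) below. Ce6 is chlorin e6, a photosensitiser, and D4-EV is the carrier as the submitters name it. The labels give no strain, age or sex of the mice, no time of harvest after light and no number of animals, so the p-values speak only of the spread among these 8 samples, which may be technical in part. Light alone, or carrier without light, was not analysed here.

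A dividing cell passes through G1, copies its DNA in S phase, and separates the copies in mitosis after a gap called G2. D-type cyclins with Cdk4 and Cdk6 release E2F transcription factors from the retinoblastoma protein, E2F then raises the genes of DNA synthesis, and a later programme driven by B-Myb and FoxM1 with the MuvB complex raises the genes of G2 and mitosis. Transcripts of both programmes are common readouts of how many cells of a tissue are cycling. In bulk tissue, a lower share of cycling cells and less of these RNAs per cycling cell cannot be told apart.

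The members fell into 4 groups by role. There were 12 S phase genes (licensing, DNA synthesis and nucleotide supply), 20 G2/M genes, 8 G1 and G1/S cyclins and kinases, and 3 transcription factors. The promoters of these groups carry different short motifs, which is why some are printed here before the values. RefSeq windows of GRCm38.p6, from 250 bases before to 50 bases after a transcript start, were matched by symbol for 32 of the 43 members, 2 of them with several windows. These windows were searched on both strands for the cell cycle homology region (CHR, TTTGAA or TTCGAA), the CCAAT box (CCAAT), and an E2F motif (TTTCCCGC, TTTGGCGC, TTTCGCGC or TTTGCCGC). A CHR word was present in 12 of 15 G2/M genes and 2 of 10 S phase genes, against 19.2% of all 32851 windows in the table. An E2F word was present in 5 of 10 S phase genes and 1 of 15 G2/M genes, against 2.26% of all windows, and CCAAT in 25 of 32 members, against 37.4%. A match to these letters is not a measured binding site. The last 200 bases before the start are given 5′ to 3′ for 4 members, with every match to the CHR, CCAAT or E2F words in capitals. Plk1 is shown as the member with the largest difference between the groups, Cdk1 and Top2a as G2/M genes rich in CHR and CCAAT words, and Mcm6 as the S phase gene with the most E2F words, 3.
Plk1 (GRCm38.p6, chr7:122159235-122159434, plus strand): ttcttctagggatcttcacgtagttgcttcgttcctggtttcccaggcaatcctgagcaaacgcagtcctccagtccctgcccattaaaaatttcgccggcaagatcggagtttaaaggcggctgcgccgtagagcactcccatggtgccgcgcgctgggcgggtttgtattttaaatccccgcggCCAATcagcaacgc
Cdk1 (GRCm38.p6, chr10:69352913-69353112, minus strand): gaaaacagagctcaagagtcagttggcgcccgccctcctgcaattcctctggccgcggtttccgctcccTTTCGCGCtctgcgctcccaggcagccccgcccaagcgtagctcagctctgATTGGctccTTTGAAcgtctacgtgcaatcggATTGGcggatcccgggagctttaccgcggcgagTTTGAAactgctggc
Top2a (GRCm38.p6, chr11:99024190-99024389, minus strand): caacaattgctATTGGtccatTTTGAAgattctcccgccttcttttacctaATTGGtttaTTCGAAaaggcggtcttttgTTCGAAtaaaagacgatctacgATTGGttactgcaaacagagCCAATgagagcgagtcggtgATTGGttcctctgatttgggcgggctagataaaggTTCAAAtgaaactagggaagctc
Mcm6 (GRCm38.p6, chr1:128359706-128359905, minus strand): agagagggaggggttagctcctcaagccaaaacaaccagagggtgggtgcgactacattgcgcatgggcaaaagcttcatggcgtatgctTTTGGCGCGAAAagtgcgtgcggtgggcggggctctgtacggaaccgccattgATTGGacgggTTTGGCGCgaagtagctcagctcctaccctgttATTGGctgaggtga
The Top2a stretch held 4 CHR and 5 CCAAT words, and the Cdk1 stretch 2, 2 and 1 E2F word. The Mcm6 stretch held 2 CCAAT and 3 E2F words, partly overlapping, and the Plk1 stretch a single CCAAT word. Plk1 also had 1 CHR word in its searched window, outside the printed stretch. Members with a CHR word in their window had a median log2 difference (PDT minus PBS) of 0.0945, and those without one 0.0507, while members with an E2F word had a median of −0.00653 and those without one 0.0945.

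Library totals were 35742024 to 40337306 reads for PBS and 39026840 to 48804713 for PDT. PBS 1 stood apart on the first principal component of all tested genes, at −111.5, where PBS 2 to 4 lay at −8.53 to 4.32 and the PDT libraries at 16.1 to 37.2. Tumour epithelium was present in all 8 libraries by its keratins, with Krt8 at 1230 to 3091 CPM and Epcam at 71.3 to 409 CPM (CPM being read counts relative to the scaled library size). The summed level of 10 macrophage markers, which include Cd68 and Lyz2, was 2092 to 4072 CPM in PBS and 4932 to 6630 CPM in PDT. Lyz2 alone gave 1132 to 2319 and 3105 to 4441 CPM of these sums. For 10 T and NK cell markers, all low, the sum was 8.99 to 19.0 and 22.5 to 29.9 CPM. Summed neutrophil markers were at 80.6 to 223 and 156 to 534 CPM, and erythroid genes at 808.5 to 4437 and 590.5 to 1353 CPM. Skeletal muscle genes ran from 52.5 to 1319 CPM in PBS and from 153.5 to 3275 CPM in PDT. Summed fibroblast markers ran from 7787 to 15820 CPM in PBS and from 12400 to 14350 CPM in PDT, and summed epithelial markers from 3575 to 7348 and from 3124 to 6258 CPM. The part of these shifts in the levels given below was not tested.

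The fitted log2 differences of the cell cycle genes, PDT minus PBS, ran from −0.46 for E2f8 to 0.56 for Plk1, and none passed the test. In edgeR's quasi-likelihood test over all 16588 tested genes, 0 of the 43 members passed an adjusted p of 0.05, where 0.235% of all tested genes did, and the adjusted p-values of the members ran from 0.16 to 0.99. DESeq2 and limma-voom also called 0 members, against 6.36% and 1.01% of the genes they tested. The median log2 difference, PDT minus PBS, was 0.056 over the members and −0.00217 over all tested genes, with 25 members above 0 and 18 below. The interval of the difference bounds what these samples could have hidden. For 42 of the 43 members the 95% interval lay within 2-fold in either direction, and for 25 within 1.5-fold. E2f8 was the exception to the first, with a lower bound of −1.04 on the log2 scale.

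**Figure D1:**
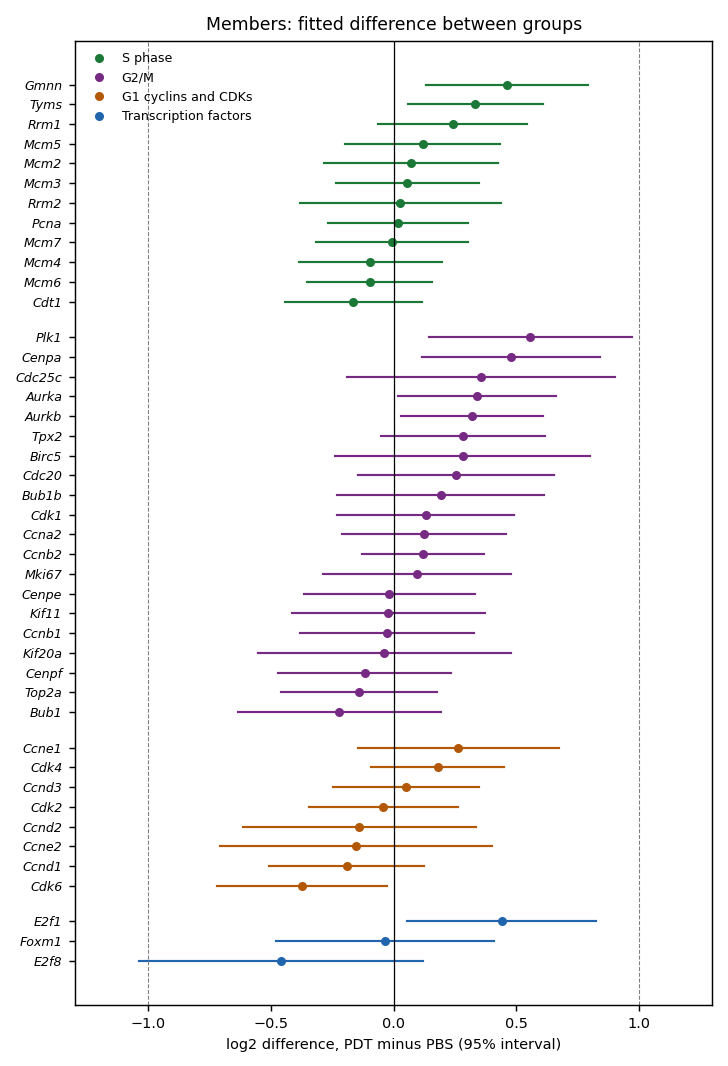
Fitted log2 difference (PDT minus PBS, x axis) of each of the 43 members (y axis), grouped by role, with lines for the 95% interval of edgeR's fit and dashed lines at a 2-fold change. Points run from −0.46 (E2f8) to 0.56 (Plk1), and 42 of the 43 intervals lie between the dashed lines.

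At an unadjusted p under 0.05 there were 8 members (18.6%), against 16.5% of all tested genes. Of these, 7 were higher in PDT (Gmnn, Tyms, Plk1, Cenpa, Aurka, Aurkb and E2f1), where 8.63% of all tested genes were higher at that p, and 1 was lower (Cdk6), against 7.87%. Without PBS 1 to 4 in turn, the count of members at that p was 7, 5, 3 and 8 (16.3%, 11.6%, 6.98% and 18.6%). The shares of all genes in those fits were 15.5%, 13.9%, 13.8% and 16.9%. Without PDT 1 to 4 in turn the count was 7, 5, 7 and 4 (16.3%, 11.6%, 16.3% and 9.3%). Those fits had 12.6%, 16.7%, 13.7% and 12.2% of all genes at that p. Without PBS 1 and PDT 1 together, a pair picked after the data were seen, the count was 10 (23.3%, against 12.5%). It was 5 when GC content and transcript length were corrected for (11.6%, against 15.8% of all tested genes in that fit). Groups did not overlap for 2 members, Tyms and Aurkb, both higher in PDT. That is 4.65% of the members, against 10.1% of all tested genes, of which 5% were higher and 5.12% lower.

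Among S phase genes, the MCM2 to MCM7 helicase subunits, which are loaded at origins and unwind DNA at the fork, sat close to 0. Their log2 differences ran from −0.10 for Mcm6 to 0.12 for Mcm5. Mcm2 (ENSMUSG00000002870) was at 79.9, 68.8, 57.2 and 73.0 CPM in PBS 1 to 4 and at 54.6, 73.7, 76.6 and 87.7 CPM in PDT 1 to 4. The groups overlapped, with both the lowest and the highest library in PDT, and the log2 difference was 0.07 ± 0.16 (SE, 95% interval −0.28 to 0.42, adjusted p = 0.888 by edgeR). Pcna (ENSMUSG00000027342), the sliding clamp of the replicative polymerases, was at 156, 146, 124 and 148 CPM in PBS and 169, 152, 132 and 129 CPM in PDT. Its log2 difference was 0.02 ± 0.13 (interval −0.27 to 0.30, adjusted p = 0.965), with the 2 groups spread over the same range.

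The genes of enzymes that supply deoxynucleotides had fitted log2 differences from 0.03 (Rrm2) to 0.33 (Tyms), none past the threshold. Tyms (ENSMUSG00000025747), thymidylate synthase, was at 39.6, 35.8, 31.8 and 37.3 CPM in PBS and 40.8, 48.6, 43.6 and 48.98 CPM in PDT. Every PDT library lay above every PBS library, though PDT 1 only just, and the log2 difference of 0.33 ± 0.13 (SE) did not pass the threshold (adjusted p = 0.21 by edgeR). Rrm1 (ENSMUSG00000030978), the large subunit of ribonucleotide reductase, was at 108, 102, 78.4 and 98.0 CPM in PBS and 101, 132, 108 and 117 CPM in PDT, and its fitted log2 difference was 0.24 ± 0.14 (adjusted p = 0.429). The groups overlapped, PBS 3 being the lowest library, and the difference was 0.15 without it and 0.38 after the GC and length correction. Rrm2 (ENSMUSG00000020649), the S phase-limited small subunit, was at 111, 57.7, 74.5 and 78.3 CPM in PBS and 72.3, 98.0, 78.0 and 79.1 CPM in PDT, and its log2 difference was 0.03 ± 0.19 (adjusted p = 0.964). PBS held both the highest and the lowest value.

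Licensing is limited to once per cycle by geminin, which binds and blocks the loading factor Cdt1. Gmnn (ENSMUSG00000006715), which encodes geminin, was at 21.1, 19.3, 18.01 and 24.8 CPM in PBS and 31.3, 24.8, 29.9 and 28.5 CPM in PDT. PBS 4 and PDT 2 were level, the other PDT libraries lay above all PBS libraries, and the log2 difference was 0.46 ± 0.15 (SE, interval 0.13 to 0.79, adjusted p = 0.16 by edgeR). After the GC and length correction it was 0.21 (adjusted p = 0.526). Cdt1 itself was at 35.4 ± 2.99 in PBS and 31.6 ± 2.97 in PDT (CPM, SD, n = 4), and its log2 difference was −0.16 ± 0.13. Over the 12 S phase genes, the median log2 difference was 0.0415, with 8 above 0 and 4 below, and 0 past the adjusted threshold. Of the 12, 2 (16.7%) had an unadjusted p under 0.05 by edgeR, against 16.5% of all tested genes.

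G2/M genes had the highest median of the 4 role groups, 0.127, with 13 of 20 above 0, and again 0 past the adjusted threshold. Markers in routine use for proliferation did not separate the groups. Mki67 (ENSMUSG00000031004), which encodes the antigen Ki-67, was at 75.7, 62.6, 62.6 and 73.4 CPM in PBS and 48.2, 80.8, 85.7 and 78.3 CPM in PDT. PDT 1 was the lowest of all 8 libraries and the other PDT libraries were the 3 highest, and the log2 difference was 0.09 ± 0.18 (SE, interval −0.29 to 0.48, adjusted p = 0.85 by edgeR). Without PDT 1 it was 0.26, and without PDT 3 it was 0.01. Top2a (ENSMUSG00000020914), the topoisomerase that untangles sister chromatids, was at 145, 150.2, 139 and 136 CPM in PBS and 95.2, 153, 131 and 137 CPM in PDT. Here too PDT 1 lay below the rest, and the log2 difference was −0.14 ± 0.15 (adjusted p = 0.696), or −0.01 without that library.

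Cyclin B1 with Cdk1 forms the kinase that starts mitosis. Ccnb1 (ENSMUSG00000041431) was at 70.5, 52.9, 68.5 and 64.5 CPM in PBS and 52.7, 82.4, 61.4 and 55.1 CPM in PDT, and its fitted log2 difference was −0.03 ± 0.16 (SE, adjusted p = 0.958 by edgeR). The highest and the lowest library were both in PDT. Cdk1 (ENSMUSG00000019942) was at 100.4, 68.2, 65.2 and 70.9 CPM in PBS and 80.6, 102, 75.8 and 75.3 CPM in PDT, and its fitted log2 difference was 0.13 ± 0.16 (adjusted p = 0.766). PBS 1 stood above the other PBS libraries, which lay below all PDT libraries, and the log2 difference was 0.29 without PBS 1 and 0.03 without PDT 2. Ccnb2 and Ccna2, the other mitotic cyclins, differed by 0.12 ± 0.11 and 0.12 ± 0.15.

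The kinase genes Plk1, Aurka and Aurkb, the centromere histone gene Cenpa and the phosphatase gene Cdc25c gave the larger differences of the group. Plk1 (ENSMUSG00000030867), the polo kinase of mitotic entry and spindle assembly, was at 18.3, 19.0, 23.8 and 21.6 CPM in PBS and 20.6, 31.1, 32.0 and 38.1 CPM in PDT. PDT 1 lay within the PBS range and the other PDT libraries above it, with a log2 difference of 0.56 ± 0.19 (SE, interval 0.14 to 0.97, adjusted p = 0.174 by edgeR). The GC and length correction lowered it to 0.28 (adjusted p = 0.463). Cenpa (ENSMUSG00000029177), the histone H3 variant that marks centromeres, was at 68.2, 43.4, 41.7 and 54.2 CPM in PBS and 73.3, 67.9, 65.7 and 82.3 CPM in PDT. PBS 1 overlapped the PDT range and the other PBS libraries did not, and the log2 difference was 0.48 ± 0.17 (adjusted p = 0.182).

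Aurkb (ENSMUSG00000020897), the kinase of the chromosomal passenger complex, was at 24.3, 20.1, 20.7 and 22.5 CPM in PBS and 26.4, 27.3, 26.3 and 29.3 CPM in PDT. The groups did not overlap, the log2 difference was 0.32 ± 0.13 (SE, adjusted p = 0.258 by edgeR), and after the GC and length correction it was 0.05. Aurka, the centrosomal Aurora kinase, and Tpx2, its activator on the spindle, differed by 0.34 ± 0.15 and 0.28 ± 0.15 (adjusted p = 0.271 and 0.392), and by 0.09 and 0.27 after that correction. The checkpoint kinases Bub1 and Bub1b differed by −0.22 ± 0.19 and 0.19 ± 0.19. The motors Kif11 and Kif20a and the kinetochore proteins Cenpe and Cenpf lay between −0.12 and −0.02. Cdc20, the activator of the anaphase-promoting complex, differed by 0.25 ± 0.18, and Birc5, survivin, by 0.28 ± 0.24. The phosphatase gene Cdc25c was the member with the lowest mean CPM in both groups, 6.86 ± 1.76 in PBS and 8.79 ± 1.70 in PDT (SD, n = 4). Its log2 difference was 0.36 ± 0.25 (SE, adjusted p = 0.533 by edgeR).

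**Figure D2:**
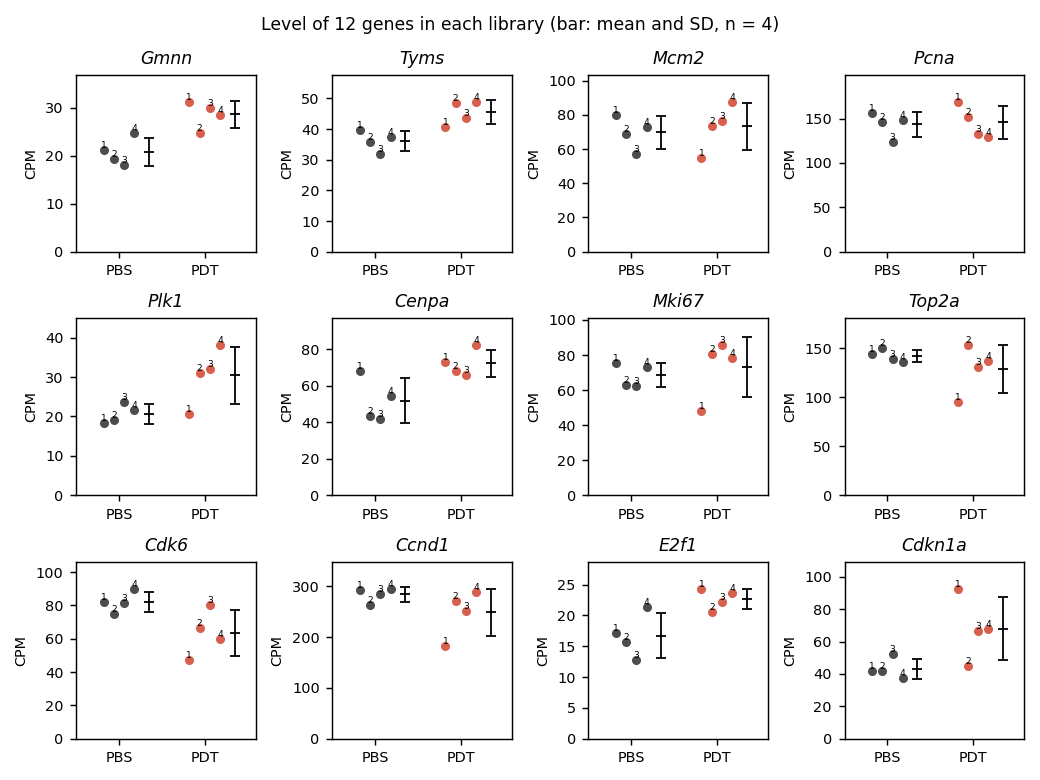
CPM (y axis, from 0) of 12 genes in each of the 8 libraries, with the replicate number above each point and a bar for the mean and SD of the 4 libraries of a group. PDT 1 is the lowest library for Mki67 (48.2 CPM) and Top2a (95.2 CPM), and the groups are apart only for Tyms.

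Among the G1 and G1/S cyclins and kinases, mean levels in PBS ran from 9.56 CPM for Ccne1 to 364 CPM for Ccnd2. Their median log2 difference was −0.091, with 3 of 8 above 0. That median was 0.0793 without PBS 1. Per kilobase of the longest transcript, Cdk4 had the highest level of all members in PBS, at 137 CPM per kb, followed by Pcna at 94.7, Ccnd1 at 75.8 and Ccnd2 at 57.5, and Cenpf had the lowest at 2.54. Cdk4 (ENSMUSG00000006728), a partner of the D cyclins, was at 290, 266, 255 and 310.4 CPM in PBS and 347, 282, 290 and 350 CPM in PDT. The groups overlapped, and the log2 difference was 0.18 ± 0.12 (SE, adjusted p = 0.525 by edgeR). After the GC and length correction it was −0.09, where the median of all tested genes was −0.0826. Cdk6 (ENSMUSG00000040274), the other kinase of the D cyclins, was at 81.9, 75.0, 81.7 and 90.1 CPM in PBS and 47.1, 66.6, 80.1 and 59.7 CPM in PDT. PDT 3 lay within the PBS range and the other PDT libraries below it, for a log2 difference of −0.37 ± 0.16 (interval −0.72 to −0.03, adjusted p = 0.266). It was −0.25 without PDT 1 and −0.17 after the correction.

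Ccnd1 (ENSMUSG00000070348), cyclin D1, was at 292, 262, 285 and 295 CPM in PBS and 183, 271, 251 and 288 CPM in PDT, and its fitted log2 difference was −0.19 ± 0.14 (SE, adjusted p = 0.567 by edgeR). PDT 1 was again the lowest library, and without it the difference was −0.06. In the GENCODE M21 annotation 23.4% of the exonic bases of Ccnd1 are shared with a gene on the other strand. The same holds for 29.3% of those of Kif20a, 19.7% of Cdk4 and 17.4% of Ccne2. These counts are uncertain for that reason, by an amount that was not tested. Ccnd2 and Ccnd3, cyclins D2 and D3, differed by −0.14 ± 0.22 and 0.05 ± 0.14. Ccne1 (ENSMUSG00000002068), the cyclin E1 that drives entry into S phase with Cdk2, was low, at 11.2, 8.34, 8.57 and 10.2 CPM in PBS and 12.5, 11.1, 10.04 and 12.3 CPM in PDT. PBS 1 and PBS 4 reached into the PDT range, with a log2 difference of 0.26 ± 0.19 (adjusted p = 0.54), and of −0.005 after the GC and length correction. Ccne2 and Cdk2 differed by −0.15 ± 0.25 and −0.04 ± 0.14.

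The 3 transcription factors lay on both sides of 0. E2f1 (ENSMUSG00000027490), an activator of S phase genes, was at 17.1, 15.6, 12.7 and 21.4 CPM in PBS and 24.4, 20.6, 22.1 and 23.7 CPM in PDT. PBS 4 reached into the PDT range and the other PBS libraries did not, and the log2 difference was 0.44 ± 0.18 (SE, interval 0.05 to 0.83, adjusted p = 0.238 by edgeR). Corrected for GC and length it was 0.18 (adjusted p = 0.702). E2f8 (ENSMUSG00000046179), an atypical E2F that represses E2F targets, was at 17.1, 16.1, 20.3 and 29.2 CPM in PBS and 9.44, 21.4, 13.1 and 16.3 CPM in PDT, and its fitted log2 difference was −0.46 ± 0.26 (adjusted p = 0.429). PDT 1 and PDT 3 lay below all PBS libraries, and the difference was −0.23 without PBS 4, −0.28 without PDT 1 and −0.66 without PDT 2. Foxm1 (ENSMUSG00000001517), the activator of G2/M genes, was at 25.7, 18.2, 37.0 and 28.6 CPM in PBS and 22.2, 27.2, 27.1 and 30.3 CPM in PDT, its log2 difference being −0.03 ± 0.20 (adjusted p = 0.957) and PDT lying inside the PBS range.

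Library by library, the role groups overlapped between PBS and PDT. The S phase score, the mean log2 CPM of the 12 genes, was 6.099, 6.027, 5.858 and 6.067 in PBS 1 to 4 and 5.959, 6.154, 6.106 and 6.154 in PDT 1 to 4. The G2/M score was 5.304, 5.081, 5.095 and 5.186 in PBS and 5.077, 5.483, 5.265 and 5.415 in PDT. In both, PDT 2 and PDT 4 were the highest libraries, and PDT 1 lay among the low ones with PBS 3 or PBS 2. The score of G1 cyclins and kinases was highest in PBS 1 at 6.32 and lowest in PDT 1 at 5.934. That of the transcription factors ran from 4.058 to 4.71 in PBS and from 4.111 to 4.519 in PDT. Of the 43 members, PDT 1 and PBS 3 each held the lowest value of the 8 libraries for 15, PDT 4 the highest for 12 and PBS 1 the highest for 9. The macrophage score was 6.73 to 7.55 in PBS and 7.77 to 8.04 in PDT. This mean score was apart between the groups in the same libraries in which the cell cycle scores overlapped. Taken singly, 5 of the 10 macrophage markers were apart (50%), against 10.1% of all tested genes.

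**Figure D3:**
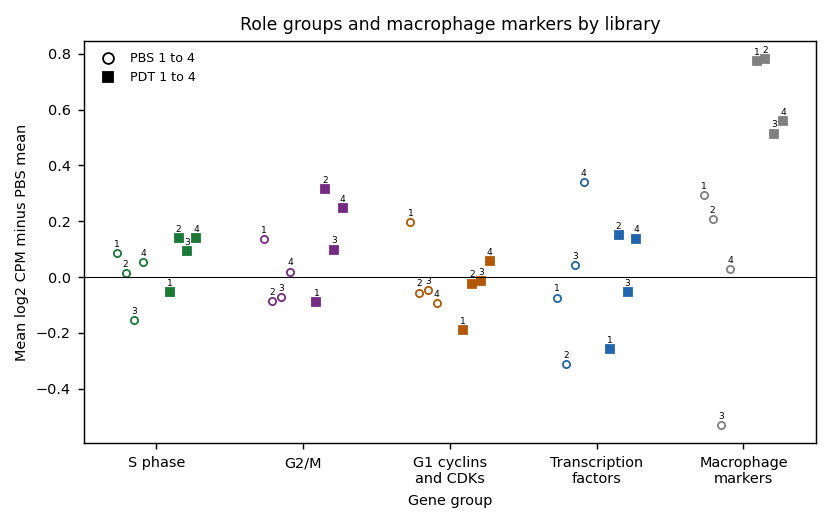
Mean log2 CPM of each role group and of 10 macrophage markers in each library, minus the mean of the 4 PBS libraries (y axis), with open circles for PBS, filled squares for PDT and the replicate number above each point. The 4 role groups overlap between PBS and PDT, and the mean of the macrophage markers does not.

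**Figure D4:**
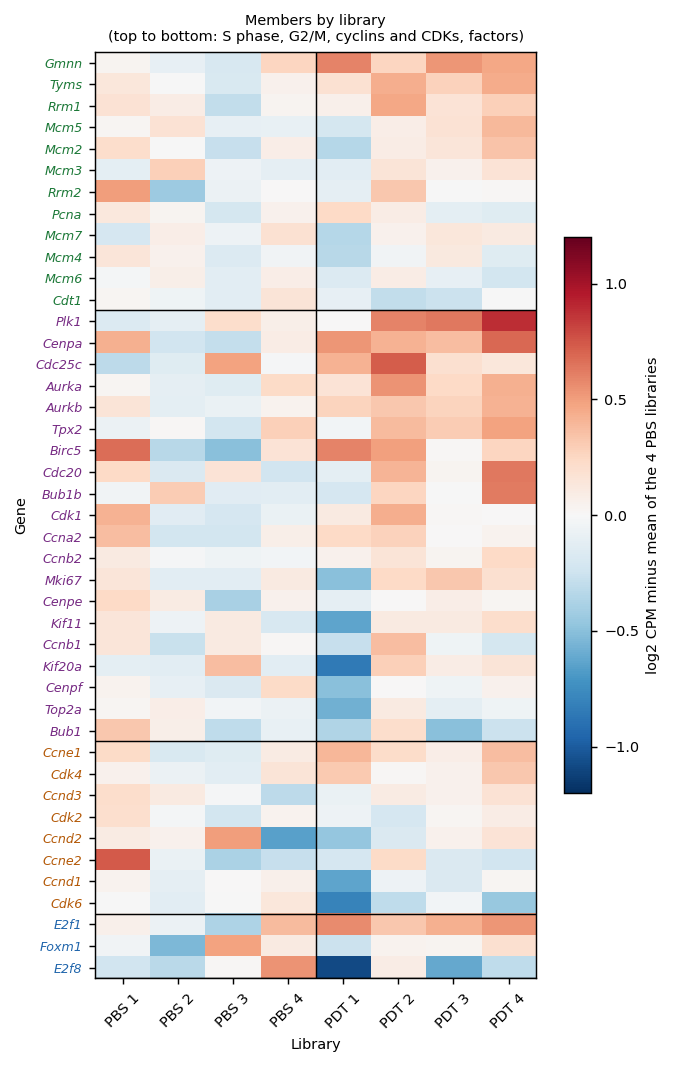
Log2 CPM of each member (rows, colour-coded labels by role) in each library (columns), minus the mean of the 4 PBS libraries, on a colour scale from −1.2 to 1.2. PDT 1 is blue for Mki67, Kif11, Kif20a, Cenpf and Top2a and red for Gmnn, Cenpa, Birc5 and E2f1. The longest transcript of Cenpa (3806 bases) is longer than that of Kif20a (3674 bases).

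PDT 1 did not sit low for all members, and its values varied with transcript length. Members were split at the median length of their longest annotated transcript, 3431 bases. In PDT 1, the 21 shorter members lay on average 0.0993 above the PBS mean on the log2 scale and the 22 longer ones averaged −0.309. In the other PDT libraries the shorter members averaged 0.0822 to 0.246 and the longer ones 0.0488 to 0.142. Across the 43 members, the difference of PDT 1 from the PBS mean correlated with log2 length at r = −0.549 (Spearman −0.542), against −0.341 to −0.15 in PDT 2 to 4 and −0.092 to 0.126 in the PBS libraries. These are descriptions over genes that share each library and its scaling. The same split was seen outside the members. Among all tested genes with a known length, the median difference of PDT 1 was 0.19 for those under 3431 bases and −0.166 for the rest, and the fitted PDT minus PBS difference had medians of 0.085 and −0.0933. Correcting for GC and length took the median of all members from 0.056 to −0.0578, where that of all genes moved from −0.00217 to −0.0826. The correction left 5 members (11.6%) at an unadjusted p under 0.05, against 15.8% of all tested genes in that fit. Of these, 3 were higher (Rrm1, Tyms and Cenpa) and 2 lower (Cdt1 and Ccnd1). The part of length in the differences of single genes was not tested further.

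**Figure D5:**
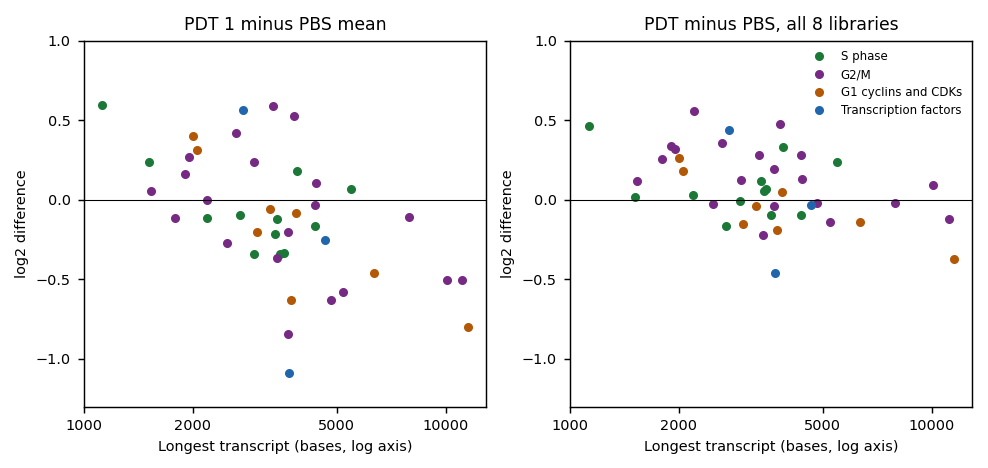
Log2 difference (y axis) of the 43 members against the length of their longest annotated transcript (x axis, log scale), for PDT 1 minus the PBS mean (left) and for PDT minus PBS over all 8 libraries (right), coloured by role. In PDT 1 the shorter members average 0.0993 and the longer ones −0.309.

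Other genes of the pathway were described from lists of textbook members. Of 10 CDK inhibitors and retinoblastoma family genes, 0 passed the threshold over all genes in edgeR, 4 were above 0 and 6 below. Cdkn1c (ENSMUSG00000037664), the inhibitor p57, was at 11.2, 7.03, 2.76 and 5.73 CPM in PBS and 28.6, 13.1, 26.6 and 19.1 CPM in PDT. No PDT library was as low as any PBS library, and the log2 difference of 1.71 ± 0.38 (SE, interval 0.89 to 2.53) had an adjusted p of 0.0745 by edgeR. With all 8 libraries it was called by DESeq2 (adjusted p = 0.000439), by limma-voom (0.0433) and by edgeR with no count filter (0.00142). In GENCODE M21, 30.7% of its exonic bases are shared with a gene on the other strand.

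Cdkn1a (ENSMUSG00000023067), the p53-induced inhibitor p21, was at 41.8, 41.7, 52.1 and 37.5 CPM in PBS and 92.6, 44.7, 66.7 and 67.7 CPM in PDT. PDT 2 lay within the PBS range and the other PDT libraries above it, and the log2 difference was 0.65 ± 0.20 (SE, adjusted p = 0.141 by edgeR, 0.0435 by DESeq2 and 0.0437 by edgeR with no count filter). Cdkn2a and Cdkn2b, the INK4 locus inhibitors, differed by −0.24 ± 0.13 and −0.33 ± 0.15, and Rb1 by −0.27 ± 0.17.

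Of 32 other replication genes 16 were above 0 and 16 below, with a median of 0.000456, and 0 passed in edgeR. Those with the smallest p were Gins2, a subunit of the CMG helicase, at 0.49 ± 0.19 on the log2 scale (SE, adjusted p = 0.237 by edgeR), and the DNA ligase Lig1 with 0.34 ± 0.15 (adjusted p = 0.271). Most of the exonic bases of Gins2, 67.3%, are shared with a gene on the other strand in GENCODE M21. Of 32 other mitotic genes 18 were above 0, with a median of 0.0296 and 0 past the threshold. Cdca3 (ENSMUSG00000023505), a trigger of mitotic entry, was at 32.7, 35.2, 30.2 and 39.5 CPM in PBS and 54.8, 48.8, 47.9 and 55.0 CPM in PDT. The groups were apart, and the log2 difference of 0.59 ± 0.13 had an adjusted p of 0.0726 by edgeR, 0.0036 by DESeq2 and 0.0355 with no count filter. Spc24, a subunit of the Ndc80 kinetochore complex, differed by 0.92 ± 0.24 (adjusted p = 0.102 by edgeR and 0.0153 by DESeq2), at 6.89 to 8.16 CPM in PBS and 9.77 to 20.6 CPM in PDT. Spc25, its partner in the same complex, differed by −0.13 ± 0.15.

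Among 12 other regulators of the E2F, DREAM and MYC families, 5 were above 0, with a median of −0.106. E2f5 (ENSMUSG00000027552), an E2F of the repressive class that acts with the retinoblastoma-like proteins, was at 38.9, 31.0, 35.5 and 30.5 CPM in PBS and 22.2, 26.5, 19.6 and 20.7 CPM in PDT. All PDT libraries lay below all PBS libraries, and the log2 difference was −0.61 ± 0.15 (SE, adjusted p = 0.0906 by edgeR and 0.0129 by DESeq2). Myc, the growth-promoting transcription factor, differed by −0.42 ± 0.19 (adjusted p = 0.294), with PBS 1 at 55.0 CPM below the other PBS libraries at 89.3 to 107 CPM and all PDT libraries between 59.8 and 72.3 CPM. Of the 86 genes in these lists, DESeq2 called 6, Cdkn1a, Cdkn1c, Cdca3, Incenp, Spc24 and E2f5, and limma-voom called 1, Cdkn1c. These are 6.98% and 1.16% of the lists, near the 6.36% and 1.01% of all genes that the same tools called. With no count filter edgeR called 3, Cdkn1a, Cdkn1c and Cdca3, which is 3.49%, against 1.95% of all genes in that fit.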

How the data were processed

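RNA of 8 tumour samples was sequenced after removal of ribosomal RNA, with a directional kit, per the labels' protocols. The authors deposited raw read counts per gene, per the file headers. The submitters' processing notes name cutadapt 4.6, STAR 2.7.11b and the build GRCm39. How reads were counted, with which strand setting and annotation, is not stated there. Fen1, with 84.2% of its exonic bases shared with genes on the other strand, was at 0 to 1.002 CPM, and Tnnc2, with 74%, had 0 reads in all 8 libraries. The part of such overlap in other counts was not tested. Of gene counts from 1 to 20, 77.9% to 83.8% were even, which is why an alternative divided the counts by 2.

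Counts were tested with R 4.3.3 and edgeR 4.0.16 (filterByExpr, TMM scaling, quasi-likelihood test, Benjamini-Hochberg adjustment over 16588 genes, threshold 0.05, no covariate). Standard errors are the log2 difference over the root of F, and 95% intervals use the moderated degrees of freedom. CPM are relative to the TMM-scaled library size, and scores are means of log2 CPM with a prior count of 2. No library was a copy of another, the chi-square over its degrees of freedom being 68 or more for every pair. The fit was also run on simulated data, and the outcome is not reported here.

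The members and lists were chosen with earlier results of these data known. Values are given in full for members with adjusted p under 0.05, the 3 with the smallest p of each role group, and 12 fixed members. Of the other lists the 2 with the smallest p and Cdkn1a are given, and further genes named there, such as Spc25 and Incenp, were added after their values were seen. Transcript lengths, GC content and exon overlaps came from GENCODE M21 (GRCm38) by identifier, which matched 98.1% of tested genes, and served for these alone. Alternatives were other scalings (RLE, upper quartile, none), other filters, the replicate number as a block, DESeq2 1.42.0, limma 3.58.1 (voom with quality weights), counts divided by 2, other-tissue and mitochondrial genes removed, and each library left out. The GC and length correction and the fit without PBS 1 and PDT 1 were added after the data were seen.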

Additional observations from a re-analysis of the deposited data

Results flagged for a closer look

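Among 28 named genes in 2 groups each, 56 sets of 4 libraries, 1 had a library far from the other libraries by Dixon's test, where chance marks about 1 set in 20. It was Cdk1 in PBS 1, at 100.4 CPM, where PBS 2 to 4 had 65.2 to 70.9 CPM.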

How the results depend on the processing

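Under 20 alternatives 0 of the 43 members were called, and the lowest adjusted p was 0.0766, for Gmnn in DESeq2. The number of all genes called ran from 0 (without PBS 3, without PDT 1, or without PBS 1 and PDT 1) to 534 with no count filter and 909 in DESeq2, against 39, and was 182 with the replicate block. With the replicate block 7 members (16.3%) had an unadjusted p under 0.05, against 17.3% of all genes in that fit. Same-numbered samples did not pair by their deviations (r = 0.0385 to 0.069). The 8 members at an unadjusted p under 0.05 became 3 to 8 (6.98% to 18.6%) with 1 library left out. In those fits 12.2% to 16.9% of all genes had such a p. With the GC and length correction there were 5 (11.6%, against 15.8%). Without PBS 1 and PDT 1 together there were 10 (23.3%, against 12.5%), all higher in PDT. That pair was picked after the data were seen. PBS 1 held the highest value of the 8 libraries for 9 members and the lowest for 2. PDT 1 held the lowest for 15 and the highest for 4. Leaving both out thus favours members higher in PDT, and no conclusion is drawn from that count. The S phase median, 0.0415, was −0.0962 with the GC and length correction, where the median of all tested genes was −0.0826. It was 0.15 without PBS 1 and PDT 1 together and −0.00871 to 0.113 with 1 library left out. The G2/M median stayed between 0.0913 and 0.269. The median of G1 cyclins and kinases, −0.091, ran from −0.0949 to 0.0793 with 1 library left out and was 0.0954 without PBS 1 and PDT 1. The cause of these shifts was not tested.

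Of 28 named genes, 21 kept 1 direction in all alternatives. The 7 others had log2 differences near 0 or turned only under the GC and length correction. That correction gave −0.0896 for Cdk4, −0.00454 for Ccne1, −0.0845 for Mcm2, −0.135 for Pcna and −0.101 for Rrm2. In that fit the median of all tested genes was itself −0.0826, against −0.00217 in the main fit. With no scaling factor Pcna was at −0.02 and Rrm2 at −0.00354. With limma-voom Foxm1 was at 0.0762 and Pcna at −0.0237, and with the replicate block Foxm1 was at 0.000178. Without PBS 1 and PDT 1 Foxm1 was at 0.0173, Ccnb1 at 0.0998 and Pcna at −0.0157. With 1 library left out Foxm1 ran from −0.185 to 0.148, Ccnb1 from −0.172 to 0.0585, Mcm2 from −0.0203 to 0.196, Pcna from −0.0517 to 0.0827 and Rrm2 from −0.1 to 0.225. With 4 libraries per group, the intervals given in the text bound each difference, and no detection limit was computed.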
